A study of Mus musculus with 21 samples.

Results

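The nascent transcriptome of mouse cortical cultures was compared between 4 h and 1 h of water, the vehicle of the study, in cells that had been given the inhibitor MM401. The comparison took 5 of the 21 libraries of the series: replicates 1, 2 and 3 of the 1 h group and replicates 1 and 2 of the 4 h group. They were taken by their labels, with earlier results of these data known, and replicate 3 of the 4 h group was left out for its depth of 316741 counts. Both groups were primary cultures from the cortex of CD1 mice of mixed sex at day 17 in vitro, carried no engineered allele, and were kept for 30 min in 25 µM MM401 before water was added. Bromouridine at 2 mM was present during the last 30 min, so each library reports RNA made between 30 min before lysis and lysis, not the whole RNA pool. The 2 groups differed in the time after water was added, and with it in the length of exposure to MM401 and in the time since handling. These cannot be told apart here. The 21 libraries hold no cultures given DMSO and water for 1 h, so the time step in water has no counterpart without the inhibitor. Used beside the 2 groups were cultures given DMSO and water for 4 h, and cultures given 40 µM bicuculline for 1 h or 4 h after MM401 or DMSO, each with 3 libraries. The study describes 3 biological replicates a group, without saying whether they came from separate litters or culture days, so the p-values measure the spread between these libraries.

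BrU-seq isolates RNA into which living cells have built bromouridine, and so reads transcription over a short window with introns included. MM401 is a peptide-like compound that blocks the binding of the histone methyltransferase MLL1, encoded by Kmt2a, to its partner WDR5, and MLL1 writes methylation on lysine 4 of histone H3 at promoters. By blocking GABA-A receptors, bicuculline increases network firing, which switches on immediate early genes such as Fos within minutes and other genes later. Adding water is the matching sham: medium and cells are disturbed but receptors are not.

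The 5 libraries held 55471272 to 61234148 counts in genes, and the other 15 that entered the fit held 49886348 to 87939384. Replicates of a group differed by more than sampling noise (chi-square per degree of freedom of 6.175 to 24.23 over the 4 pairs within the 2 groups). Markers of excitatory neurons summed to 922.1 to 967.5 CPM (read counts after TMM scaling of each library, a between-library normalization) at 1 h and to 1024 and 1050 CPM at 4 h, and markers of inhibitory neurons to 361.3 to 376.9 and to 364.1 and 415.9 CPM. Astrocyte markers reached 1111 to 1383 and 1122 to 1242 CPM, so the cultures held glia beside neurons. Endothelial markers were at 5.088 to 6.63 CPM over the 5 libraries. In bulk samples like these, fewer cells of a type and less RNA made per cell cannot be told apart.

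Few genes were called between 1 h and 4 h of water, in a comparison of 2 libraries against 3. On the simulated data described below, it recovered 56 of 100 genes changed 1.5-fold. Of 16959 genes tested, 45 rose and 102 fell, which is 0.867% of all tested genes (0.265% higher and 0.601% lower; edgeR quasi-likelihood test, Benjamini-Hochberg adjusted p under 0.05), and 1699 had an unadjusted p under 0.05. The changes were small: 9 called genes changed by at least 2-fold (3 higher, 6 lower) and 49 by at least 1.5-fold (7 higher, 42 lower). The median log2 fold change was 0.38 among the genes that rose, -0.52 among those that fell and -0.0053 over all tested genes. Genes that fell included matrix genes (Fn1, Col12a1, Tnc), the adhesion receptor gene Adgrg6, transcription factors (Plagl1, Creb5, Rorb), the oxidase gene Nox4, the cystine carrier gene Slc7a11 and sterol genes (Fdft1, Insig1). Genes that rose included receptor genes (Grm3, Gabrg1, Grin3a), Wls and Dkk2, the nuclear export gene Xpo1 and linker histone genes. For scale, the same step from 1 h to 4 h in bicuculline under MM401 called 5691 genes, 33.6% of those tested, and under DMSO 5805, 34.2% (edgeR). Those steps had 3 libraries in every group.

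How many genes passed depended on single libraries. Without replicate 1 of the 4 h group 14 genes were called, without replicate 2 of that group 51, and without replicates 1, 2 and 3 of the 1 h group in turn 140, 57 and 61 (edgeR, with the lone 4 h library assumed to vary like the other groups). With the shallow library of the 4 h group kept, 19 genes were called. With plain library sizes in place of TMM scaling 178 genes were called, 111 of them among the 147. The count was 328 with the 5 libraries of the comparison alone and 275 with DESeq2. All 147 genes kept their sign in each of the 13 alternative settings. These reuse the libraries that picked the genes, so the kept sign is no separate support. Of the 147, 7 were called in every setting: Map3k15, Creb5, Fancc, Plagl1, Nox4, Adgrg6 and L3mbtl3. Creb5, Fancc and L3mbtl3 were singled out by that count, after their values were seen. Of the genes described below whose calls under these 5 fits are not given with them, Rorb was called in 5, Sgms2, Xpo1, Tmem255b and Csgalnact1 in 4, and Gna14, C8b and Katnal2 in 3. Iqcm, Dkk2, Chac1, Tbc1d8b, Zbtb40, Serpini1 and Fkbp5 were called in 2, and Ret, Hao1, Neurl3, Mnd1, Aldh1l1, Mthfd1l, Kremen1, Bcor and BC052040 in 1. Genes named for the size of their change were required to have no overlap between the libraries of the groups, so that gap is no result for them.

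Map3k15 encodes a MAP kinase kinase kinase of the ASK family and lay at chrX:159988203-160123351 on mm10. It was at 14.6, 14.9 and 14.3 CPM in the 1 h libraries and at 7.54 and 7.70 CPM in the 4 h libraries. The spread within either group was a small part of the gap, and the log2 fold change was -0.94 (SE 0.084, adjusted p = 1.97e-06, edgeR). The gene overlaps Pdha1 on the opposite strand, and reads of the 2 could not be separated if strand was not used in counting. Creb5 encodes a bZIP transcription factor of the CREB/ATF family. It measured 171, 191 and 183 CPM at 1 h and 99.9 and 115 CPM at 4 h (log2 fold change -0.76, SE 0.069). Fancc, a gene of the Fanconi anaemia DNA repair complex, stood at 27.6, 30.8 and 30.2 CPM at 1 h and at 19.7 and 19.0 CPM at 4 h (log2 fold change -0.61, SE 0.069). L3mbtl3, which encodes a reader of methylated histones and was the one of the 7 that rose, went from 50.6, 50.1 and 53.8 CPM to 65.0 and 71.4 CPM (log2 fold change 0.41, SE 0.056). In each of these genes all 4 h libraries lay on one side of all 1 h libraries, which the naming rule required for Map3k15. Over all tested genes 31.9% had no overlap of this kind, in either direction.

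**Figure D1:**
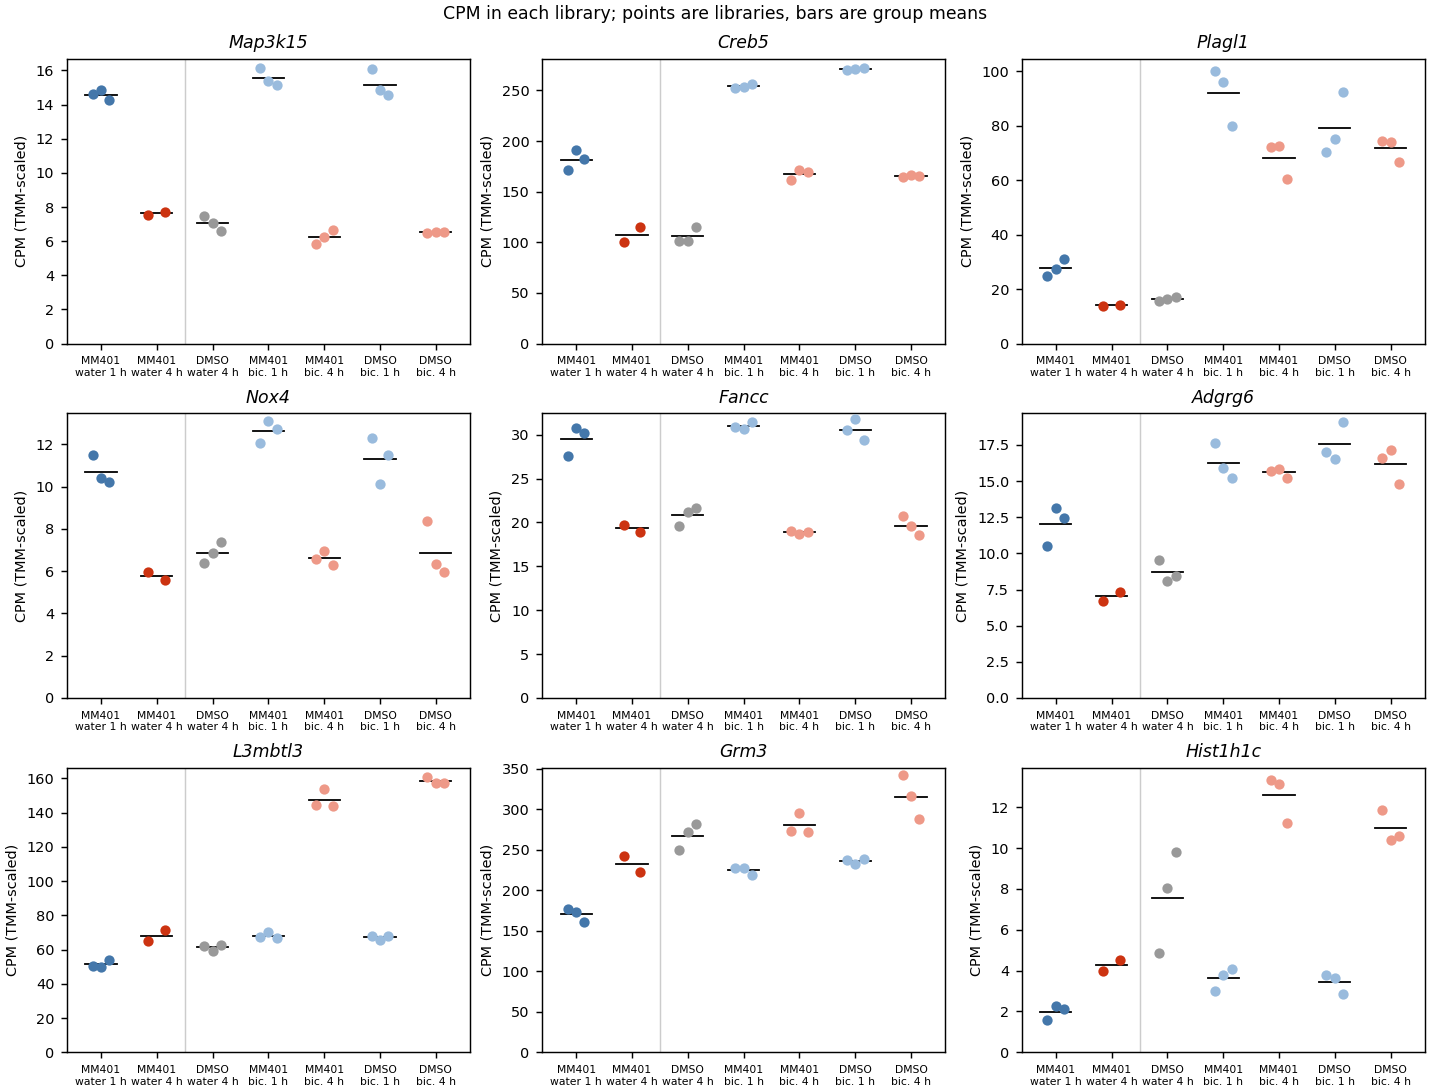
Each panel plots the CPM (TMM-scaled, axis from 0) of 1 gene in every library of the 7 groups, with points for libraries and bars for group means. In the leftmost pair of groups, the MM401 cultures in water at 1 h and 4 h, no library of one group overlaps the other. The naming rule required this for all the genes shown but Creb5, Fancc and L3mbtl3. Map3k15, for example, lies at 14.3 to 14.9 CPM at 1 h and at 7.54 and 7.70 CPM at 4 h.

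Among the transcription factor genes named by rule, Plagl1 had the largest decrease. It is an imprinted gene for a zinc finger protein linked to growth arrest, and lay at chr10:13090831-13131694. It was at 24.7, 27.4 and 31.2 CPM at 1 h and at 13.9 and 14.1 CPM at 4 h. The 4 h libraries were alike, and the log2 fold change of Plagl1 was -0.99 (SE 0.13, adjusted p = 0.00057, edgeR). The RNA gene Hymai overlaps it on the same strand. Rorb, the nuclear receptor gene known from layer 4 of the cortex and as a relative of the clock regulator Rora, gave 456, 493 and 546 CPM at 1 h and 309 and 306 CPM at 4 h (log2 fold change -0.70, SE 0.082, adjusted p = 9.54e-05). It was the one called gene of 19 tested circadian clock genes, of which 15 had a negative log2 fold change (median -0.09) and 5 were lower at an unadjusted p under 0.05, where 0.601% of all tested genes fell, 51.5% were negative and 5.99% were lower at that p. Those 5 were Rorb, Dbp, Hlf, Per3 and Nr1d2. The core clock genes Clock (0.04), Arntl (0.15), Per1 (-0.04), Per2 (-0.09) and Cry1 (-0.07) had adjusted p-values from 0.518 to 0.970 (edgeR). Etv1, an ETS factor downstream of MAP kinase signalling, rose from 43.9, 43.6 and 44.6 CPM to 54.5 and 54.1 CPM (log2 fold change 0.30, SE 0.068) and was the one called gene of 16 tested MAP kinase feedback genes (median 0.02, from -0.04 without replicate 2 to 0.15 without replicate 1 of the 4 h group). Its call was lost in each of the 5 fits that left out 1 library.

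Genes of the extracellular matrix leaned lower at 4 h. Of 25 tested, 3 fell, 0 rose and 22 had a negative log2 fold change, where 0.601% of all tested genes fell and 51.5% were negative. The median was -0.32 against -0.0053 over all tested genes; without replicate 3 of the 1 h group the median was -0.19. Fn1, which encodes fibronectin, lay at chr1:71585472-71653234. It was at 14.7, 19.4 and 17.4 CPM at 1 h and at 8.56 and 10.6 CPM at 4 h, a log2 fold change of -0.84 (SE 0.12, adjusted p = 0.00057, edgeR). Col12a1, a collagen that sits on the surface of collagen fibrils, was at 7.71, 8.99 and 8.38 CPM against 4.13 and 4.95 CPM (log2 fold change -0.88, SE 0.13, adjusted p = 0.000757). Tnc, the glial matrix protein tenascin C, was at 32.3, 37.7 and 41.4 CPM against 26.9 and 26.8 CPM (log2 fold change -0.47, SE 0.11, adjusted p = 0.0435). No 4 h library reached the lowest 1 h library in Tnc, nor in Fn1 and Col12a1, where the naming rule required it. Of all tested genes 31.9% did not overlap in either direction. Fn1 and Col12a1 each kept their call in 4 of the 5 fits that left out 1 library, and Tnc in 1. The fibrillar collagen genes Col1a1 (-0.87, SE 0.71), Col1a2 (-1.08, SE 0.78) and Col3a1 (-1.28, SE 0.95) had standard errors close to their log2 fold changes and were not called. Basement membrane genes were near the 1 h level, with Col4a2 at -0.08, Lamc1 at -0.08 and Lama2 at -0.05 on the log2 scale. Markers of fibroblast and leptomeningeal cells, which make much of the fibrillar collagen around the brain, summed to 73.8 to 81.6 CPM at 1 h and to 66.7 and 73.1 CPM at 4 h. Of 12 listed, 9 were tested, 0 were called, and Lum, Foxc2 and Slc6a13 were too low to test. The part of these cells in the matrix genes was not tested.

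Adgrg6, an adhesion G protein-coupled receptor known for its role in Schwann cell myelination, was at 10.5, 13.1 and 12.5 CPM at 1 h and at 6.73 and 7.32 CPM at 4 h (log2 fold change -0.78, SE 0.11, adjusted p = 0.00057, edgeR). Ret, the receptor tyrosine kinase for ligands of the GDNF family, was at 2.31, 3.49 and 3.20 CPM against 1.66 and 1.70 CPM (log2 fold change -0.84, SE 0.18). Gna14, a G protein alpha subunit of the Gq class, was at 7.89, 9.82 and 10.1 CPM against 5.41 and 5.42 CPM (log2 fold change -0.78, SE 0.15). These 3 genes encode parts of receptor signalling at the cell surface. The secreted factor gene Angptl2 had the largest decrease of the genes named by rule, from 2.49, 3.19 and 3.57 CPM to 1.04 and 1.48 CPM (log2 fold change -1.29, SE 0.27, adjusted p = 0.0191). It overlaps Ralgps1 on the opposite strand, and its call held in 1 of the 5 fits that left out 1 library. Sgms2, a sphingomyelin synthase of the plasma membrane, was at 2.20, 2.24 and 2.48 CPM against 1.04 and 1.14 CPM (log2 fold change -1.08, SE 0.16, adjusted p = 0.000811), which rests on 60 to 162 reads a library. A further 4 genes of the rule fell at similarly low levels, with at most 5.06 CPM in any of the 5 libraries: the complement gene C8b (log2 fold change -0.94), the peroxisomal oxidase gene Hao1 (-0.85), the ubiquitin ligase gene Neurl3 (-0.82) and the meiotic recombination gene Mnd1 (-0.78). Hao1 was at -0.51 without replicate 1 of the 4 h group and at -1.27 without replicate 2 of it.

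Nox4 encodes an NADPH oxidase that makes hydrogen peroxide and lay at chr7:87246648-87398708. It was at 11.5, 10.4 and 10.2 CPM at 1 h and at 5.98 and 5.59 CPM at 4 h, with a log2 fold change of -0.88 (SE 0.12, adjusted p = 0.00057, edgeR). Slc7a11, the carrier that imports cystine in exchange for glutamate and feeds glutathione synthesis, was at 93.5, 109 and 136 CPM against 65.2 and 63.5 CPM (log2 fold change -0.81, SE 0.16, adjusted p = 0.0179). The 1 h libraries of Slc7a11 were widely spread (SD 21.6, n = 3), and the call held in 1 of the 5 fits that left out 1 library. With the 5 libraries of the comparison alone it was not called (adjusted p = 0.121, edgeR). Of 10 tested NRF2 target genes, Slc7a11 was the one called, and the classic targets Hmox1 (-0.05), Gclm (-0.08), Gclc (-0.04) and Nqo1 (-0.62, SE 0.28) were not (median of the list -0.13). In this list 9 of 10 genes were negative and 4 were lower at an unadjusted p under 0.05, against 51.5% and 5.99% of all tested genes. Chac1, which encodes an enzyme that degrades glutathione and is induced in the integrated stress response, moved the other way, from 3.19, 3.74 and 3.12 CPM to 4.40 and 5.45 CPM (log2 fold change 0.56, SE 0.11, adjusted p = 0.0178). Its call was lost with plain library sizes (adjusted p = 0.0995, edgeR) and with the 5 libraries of the comparison alone (adjusted p = 0.0510). Of 20 tested genes of ER stress and the integrated stress response, Chac1 rose, Slc7a11 fell and 18 were not called (median 0.01, from -0.01 without replicate 1 to 0.11 without replicate 3 of the 1 h group). The sensors' targets Atf4 (0.0050), Ddit3 (0.01) and Hspa5 (-0.12) had adjusted p-values of 0.998, 0.997 and 0.973. None of 18 heat shock, 12 p53 target, 12 interferon-stimulated, 17 NF-kB and inflammatory, 15 hypoxia and glycolysis or 7 aryl hydrocarbon receptor genes tested was called by edgeR. At an unadjusted p under 0.05, 4 of the 7 aryl hydrocarbon receptor genes, 4 of the 17 NF-kB and inflammatory genes and 1 heat shock gene were lower and 3 of the 15 hypoxia and glycolysis genes higher, against 5.99% lower and 4.03% higher over all tested genes. Their medians ran from -0.22 (NF-kB and inflammatory genes, aryl hydrocarbon receptor genes) to 0.10 (hypoxia and glycolysis genes). The median of the interferon-stimulated genes, -0.19, was -0.62 without replicate 1 of the 4 h group and 0.20 without replicate 2 of it, and that of the heat shock genes, -0.02, was 0.03 without replicate 3 of the 1 h group. That of the aryl hydrocarbon receptor genes was -0.12 without replicate 1 of the 4 h group, and that of the hypoxia and glycolysis genes 0.17 without replicate 2 of it. Targets of actin, SRF and YAP signalling (17 tested, median -0.08) and of TGF-beta and BMP (16 tested, median -0.15) also had 0 called, with 0 higher and 2 lower in each at an unadjusted p under 0.05.

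Genes of sterol synthesis and the SREBP pathway, which supply cholesterol and are switched on when cell sterols run low, lay lower at 4 h almost throughout. Of 20 tested, 2 fell, 0 rose and 19 had a negative log2 fold change, with a median of -0.23, and 11 had an unadjusted p under 0.05 in the lower direction. Of all tested genes 0.601% fell, 51.5% were negative and 5.99% were lower at an unadjusted p under 0.05. Fdft1, squalene synthase, was at 72.0, 81.2 and 83.3 CPM at 1 h and at 60.3 and 57.2 CPM at 4 h (log2 fold change -0.42, SE 0.075, adjusted p = 0.00589, edgeR). It overlaps Ctsb on the opposite strand. Insig1, the feedback regulator that holds SREBP in the endoplasmic reticulum, was at 41.7, 46.0 and 46.3 CPM against 33.4 and 33.9 CPM (log2 fold change -0.41, SE 0.079, adjusted p = 0.0112). The groups did not overlap in either gene, as in 31.9% of all tested genes. Of the 5 fits that left out 1 library, Fdft1 was called in 3 and Insig1 in 1. The synthase gene Hmgcs1 (-0.34, SE 0.10) was not called, with an adjusted p of 0.147. In bicuculline the same step called 14 of these genes lower and 0 higher under MM401 and 12 lower and 0 higher under DMSO, where 16% and 15.2% of all tested genes were called lower. Fkbp5, the chaperone gene induced by glucocorticoids, was at 50.2, 58.0 and 58.9 CPM at 1 h and at 37.7 and 42.3 CPM at 4 h in water (log2 fold change -0.48, SE 0.094, adjusted p = 0.0119). It was the one called gene of 15 tested glucocorticoid-responsive genes, whose median was -0.05, and -0.0046 without replicate 1 of the 4 h group.

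**Figure D2:**
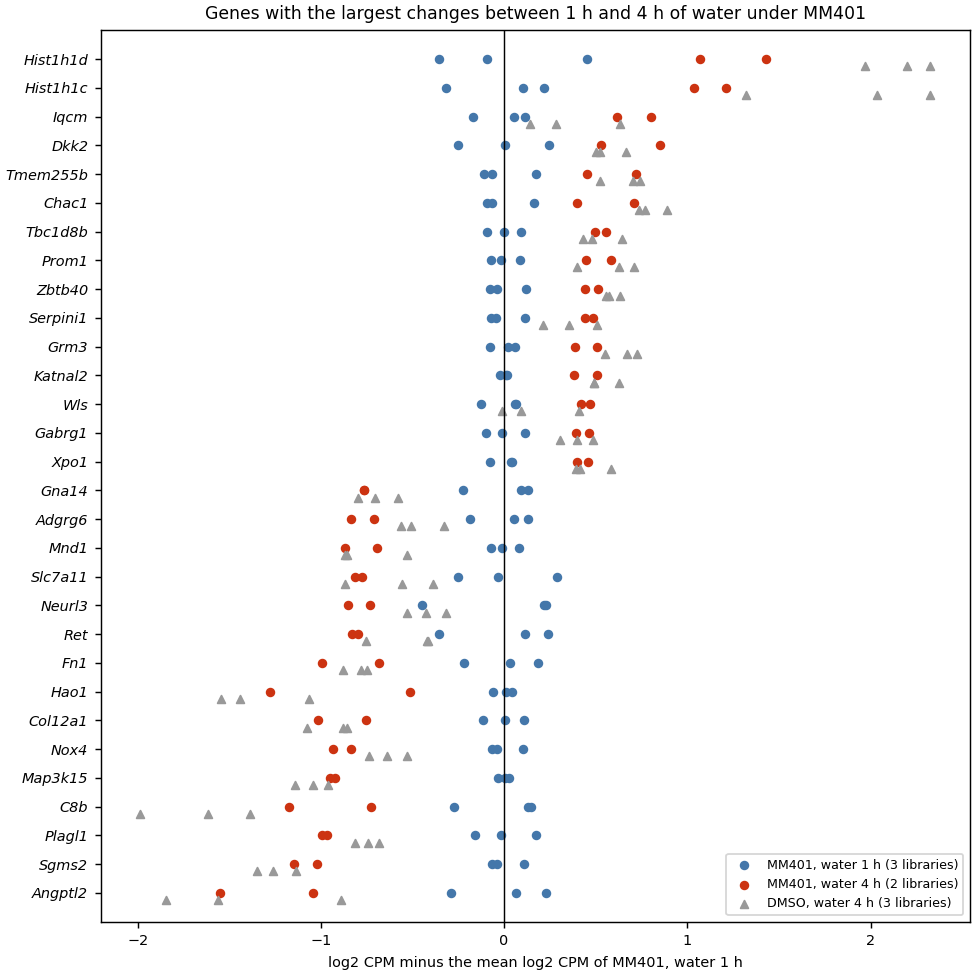
For each of the genes named for the size of their change, points give log2 CPM in each library minus the mean log2 CPM of the 3 MM401 libraries in water at 1 h, for the MM401 libraries at 1 h and 4 h and the DMSO libraries at 4 h. The 2 MM401 libraries at 4 h lie on one side of all 3 libraries at 1 h in each gene, which the naming rule required; the log2 fold changes run from -1.29 for Angptl2 to 1.23 for Hist1h1d.

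Among the genes that rose were 3 receptors for glutamate and GABA. Grm3 encodes the metabotropic glutamate receptor 3, which is found on astrocytes and neurons, and lay at chr5:9485235-9725352. It was at 177, 173 and 161 CPM at 1 h and at 242 and 222 CPM at 4 h, a log2 fold change of 0.45 (SE 0.073, adjusted p = 0.00267, edgeR), and kept its call in 4 of the 5 fits that left out 1 library. Gabrg1, the gamma 1 subunit of the GABA-A receptor, was at 25.6, 22.1 and 23.4 CPM against 32.6 and 31.1 CPM (log2 fold change 0.43, SE 0.094, adjusted p = 0.0266). Grin3a, an NMDA receptor subunit that lowers calcium entry, was at 71.7, 66.4 and 71.6 CPM against 97.7 and 83.3 CPM (log2 fold change 0.37, SE 0.083, adjusted p = 0.0293). It holds Ppp3r2 on the same strand. All 4 h libraries were above all 1 h libraries in Grin3a, and in Grm3 and Gabrg1, where the naming rule required it. Gabrg1 and Grin3a were each called in 1 of the 5 fits that left out 1 library. Over 26 ionotropic glutamate and GABA-A receptor subunit genes tested, 2 rose (Gabrg1 and Grin3a), 0 fell and 23 had a positive log2 fold change, with a median of 0.20, or 0.08 with the shallow library kept. Of all tested genes 0.265% rose and 48.5% were positive. Main subunit genes of each receptor class included Gria1 at 0.05 (SE 0.11), Gria3 at 0.28 (SE 0.10), Grin2b at 0.20 (SE 0.12) and Gabrb1 at 0.31 (SE 0.11), none of them called. Many of these genes are long, and the levels of long genes also differed by library. Genes of at least 100 kb took 61.3% ± 0.088 of counts at 4 h (SD, n = 2) and 59.7% ± 1.39 at 1 h (SD, n = 3), a difference of 1.57 percentage points (exact permutation test, two-sided, p = 0.4, where the smallest p possible was 0.2). With the shallow library kept the direction reversed, to a difference of -0.83 percentage points. With a trend over gene length removed from each library, the count of called genes was 235 (112 higher, 123 lower), the median of the receptor subunits was 0.18, and Gabrg1 (adjusted p = 0.00926) and Grin3a (adjusted p = 0.00815) were called (edgeR).

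Wls encodes Wntless, which carries Wnt ligands to the cell surface, and Dkk2 a secreted modulator of Wnt receptors. Wls was at 77.3, 68.0 and 77.7 CPM at 1 h and at 99.1 and 103 CPM at 4 h (log2 fold change 0.44, SE 0.10, adjusted p = 0.0474, edgeR), and lost its call in each of the 5 fits that left out 1 library. Dkk2 was at 3.43, 2.88 and 4.06 CPM against 6.17 and 4.93 CPM (log2 fold change 0.68, SE 0.15, adjusted p = 0.0287). Xpo1, the exportin that carries proteins and RNA out of the nucleus, was at 107, 98.4 and 107 CPM against 143 and 137 CPM (log2 fold change 0.43, SE 0.073, adjusted p = 0.00466). Serpini1, the neuronal inhibitor of tissue plasminogen activator known as neuroserpin, was at 58.4, 51.4 and 52.2 CPM against 73.1 and 75.6 CPM (log2 fold change 0.46, SE 0.082, adjusted p = 0.00589). Prom1, a membrane glycoprotein of progenitor cells, was the one called gene of 9 tested ependymal and progenitor markers, at 3.56, 3.43 and 3.83 CPM against 4.91 and 5.40 CPM (log2 fold change 0.52, SE 0.12). It lost its call in each of the 5 fits that left out 1 library. Iqcm, a gene for a protein with an IQ motif, was at 6.0, 6.25 and 5.13 CPM at 1 h and at 8.84 and 10.1 CPM at 4 h (log2 fold change 0.71, SE 0.14). Tmem255b (0.59), Tbc1d8b (0.52), Zbtb40 (0.47) and Katnal2 (0.45) rose by similar amounts.

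The largest increases by fold among called genes were in linker histone genes, which encode the H1 proteins that bind DNA between nucleosomes. The promoter stretches of the 3 called H1 genes, 250 bases up to the annotated start, are shown because these genes led the increases and are known to share control elements. They are RefSeq sequences (build GRCm38.p6, which is mm10; chromosome 13, plus strand), with CCAAT and, where it occurs, the H1 box AAACACA in capitals:
Hist1h1a: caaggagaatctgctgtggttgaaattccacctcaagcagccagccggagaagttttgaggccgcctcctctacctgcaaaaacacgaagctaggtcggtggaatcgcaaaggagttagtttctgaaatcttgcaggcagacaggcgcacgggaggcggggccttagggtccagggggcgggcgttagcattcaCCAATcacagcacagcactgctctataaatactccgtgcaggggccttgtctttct
Hist1h1c: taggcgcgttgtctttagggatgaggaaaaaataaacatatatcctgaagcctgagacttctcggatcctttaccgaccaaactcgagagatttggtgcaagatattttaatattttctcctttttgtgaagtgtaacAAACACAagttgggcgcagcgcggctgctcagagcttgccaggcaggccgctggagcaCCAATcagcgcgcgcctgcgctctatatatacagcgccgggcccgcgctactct
Hist1h1d: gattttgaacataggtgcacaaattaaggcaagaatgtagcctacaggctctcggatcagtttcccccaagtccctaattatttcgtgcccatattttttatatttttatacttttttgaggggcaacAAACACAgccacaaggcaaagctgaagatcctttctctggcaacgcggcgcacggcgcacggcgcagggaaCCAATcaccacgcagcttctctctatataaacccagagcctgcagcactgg

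The 3 stretches lie at chr13:23763418-23763667 (Hist1h1a), chr13:23738557-23738806 (Hist1h1c) and chr13:23554782-23555031 (Hist1h1d). CCAAT begins 56, 54 and 51 bases before the start in Hist1h1a, Hist1h1c and Hist1h1d, and AAACACA 112 bases before it in Hist1h1c and 122 in Hist1h1d. The stretch of Hist1h1a does not hold AAACACA in these 250 bases. Searched on both strands, CCAAT was in 36.2% of 13292 promoters of tested genes of the same length and AAACACA in 4.15%.

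Hist1h1c was at 1.57, 2.27 and 2.10 CPM at 1 h and at 4.00 and 4.52 CPM at 4 h (log2 fold change 1.10, SE 0.22, adjusted p = 0.0179, edgeR). Hist1h1d was at 1.63, 0.935 and 1.12 CPM against 3.22 and 2.51 CPM (log2 fold change 1.23, SE 0.27, adjusted p = 0.0291). Hist1h1a, below the level set for naming genes, was at 0.388, 0.490 and 0.123 CPM against 1.06 and 0.722 CPM (log2 fold change 1.41, SE 0.34, adjusted p = 0.0489). The 4 h libraries were above the 1 h libraries in each of the 3 genes, which the naming rule required for Hist1h1c and Hist1h1d. The calls of Hist1h1a, Hist1h1c and Hist1h1d each held in 1 of the 5 fits that left out 1 library. With plain library sizes Hist1h1c (adjusted p = 0.0522, edgeR) and Hist1h1a (adjusted p = 0.0586) were not called. Hist1h1a was also not called with the 5 libraries of the comparison alone (adjusted p = 0.124, edgeR). The set of all replication-type histone genes was drawn up by symbol after these values were seen, and is described without a test. Of 57 tested, 53 had a positive log2 fold change (93%, against 48.5% of all tested genes and 53% of 249 other genes under 1 kb), 3 rose and 0 fell, and the median was 0.67. Summed over the 57 genes, the 1 h libraries held 75.9, 39.9 and 46.4 CPM and the 4 h libraries 101 and 70.4 CPM, so replicate 1 of the 1 h group lay above replicate 2 of the 4 h group and the groups overlapped. Between libraries of the same number the sum was higher at 4 h in both cases, 101 against 75.9 CPM for replicate 1 and 70.4 against 39.9 CPM for replicate 2. Replicate 1 had the highest sum in every one of the 7 groups. The median was 0.34 without replicate 1 of the 4 h group and 1.13 without replicate 1 of the 1 h group, and the part of the replicate in the difference was not tested. In bicuculline 24 histone genes were called higher and 0 lower at 4 h against 1 h under MM401 (median 1.03; 17.5% of all tested genes were called higher), and 20 and 0 under DMSO (median 0.91; 19.1%). The cell cycle genes listed, which include markers of dividing cells, had 0 of 12 called and a median of -0.12 in water, which was -0.25 without replicate 1 of the 4 h group and -0.02 without replicate 2 of it.

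**Figure D3:**
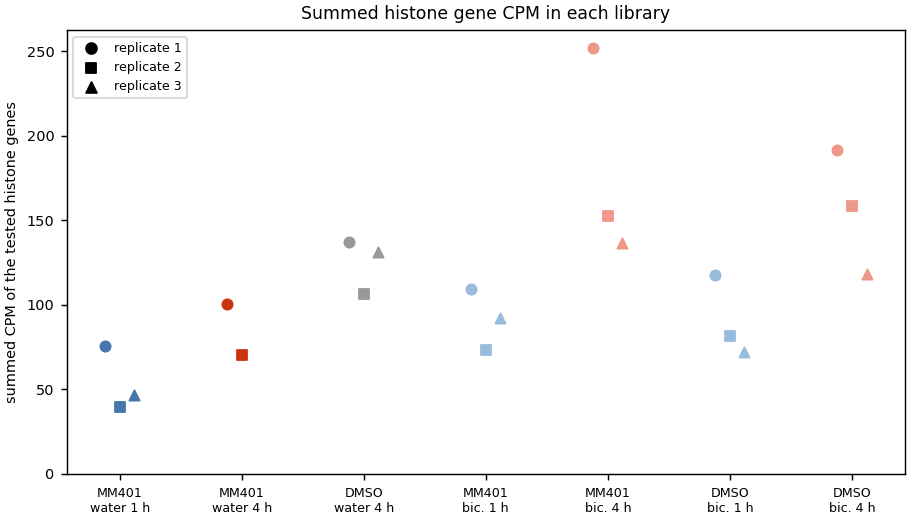
Points give the summed CPM of the 57 tested histone genes in each of the 20 libraries by group, with marker shapes for replicate numbers and the axis from 0. The MM401 libraries in water lie at 39.9 to 75.9 CPM at 1 h and at 70.4 and 101 CPM at 4 h, so the groups overlap, and replicate 1 is the highest in each group.

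Genes that answer to neuronal activity did not pass the test in water. Of 20 tested rapid activity-induced genes 0 were called by edgeR (1 higher and 2 lower at an unadjusted p under 0.05), and of 18 delayed ones 0 were called (0 higher and 2 lower). The medians were -0.08 and -0.10. Without replicate 1 of the 4 h group the median of the rapid genes was 0.08, and without replicate 2 it was -0.28; that of the delayed genes was -0.0046 and -0.18. Fos, the AP-1 transcription factor gene, was at 30.2, 28.2 and 36.6 CPM at 1 h and at 29.6 and 39.1 CPM at 4 h (log2 fold change 0.12, SE 0.19), and the groups overlapped. Egr1, a zinc finger factor of the same early class, was at 63.2, 62.1 and 67.5 CPM against 70.3 and 87.8 CPM (log2 fold change 0.30, SE 0.11, adjusted p = 0.283). Its 4 h libraries were both above the 1 h libraries but far apart from each other. Arc, which encodes a regulator of AMPA receptor trafficking, was at 8.39, 10.8 and 12.3 CPM against 8.11 and 12.1 CPM (log2 fold change -0.06, SE 0.18). Npas4 (-0.27, SE 0.19), Nr4a1 (-0.13, SE 0.10), Bdnf (-0.08, SE 0.11), Nptx2 (-0.17, SE 0.11), Homer1 (0.18, SE 0.14) and Plk2 (-0.03, SE 0.087) likewise had adjusted p-values from 0.691 to 0.976 (edgeR). In bicuculline, by contrast, all 20 rapid genes were called lower at 4 h than at 1 h under MM401 and under DMSO (medians -1.25 and -1.29). Fos under MM401 went there from 232, 246 and 300.3 CPM to 111, 110 and 106 CPM. The difference between the time steps in bicuculline and water was -1.37 for Fos (adjusted p = 0.00163, edgeR) and -1.95 for Egr1 (adjusted p = 7.64e-08).

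The gene for the target of the inhibitor was not called. Kmt2a, which encodes MLL1, was at 201, 205 and 197 CPM at 1 h and at 199 and 211 CPM at 4 h (log2 fold change 0.03, SE 0.077, adjusted p = 0.971, edgeR). MM401 acts on the protein, so its transcription does not check the treatment. Of 18 tested genes for writers and erasers of H3K4 methylation 0 were called (1 higher and 0 lower at an unadjusted p under 0.05), with a median of 0.03 and a range from -0.16 for Cxxc1 to 0.16 for the demethylase gene Kdm5b. With plain library sizes in place of TMM scaling the median of this list was -0.04. Of 10 listed genes reported to depend on MLL1, 5 were expressed enough to test and 0 were called (median 0.13, and -0.06 with the shallow library kept). Hoxa5, Hoxa7, Hoxa9 and Hoxa10 were among those too low to test.

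Cell type markers changed in 2 cases, Prom1 and Aldh1l1. Aldh1l1, the folate enzyme gene used to mark astrocytes, was at 44.7, 52.0 and 58.6 CPM at 1 h and at 32.9 CPM in both libraries at 4 h (log2 fold change -0.65, SE 0.14, adjusted p = 0.0255, edgeR). It overlaps an uncharacterised gene on the opposite strand. The glutamate transporter gene Slc1a3 was also lower, at 356, 410 and 463 CPM against 317 and 259 CPM, but was not called (log2 fold change -0.51, SE 0.13, adjusted p = 0.0811). Other astrocyte genes lay on both sides, with Gfap at -0.19, Slc1a2 at 0.15 and Aqp4 at 0.22. Over the 10 astrocyte markers 1 fell and 0 rose, the median was -0.10, and it was -0.29 without replicate 1 of the 4 h group and 0.06 without replicate 2 of it. Their summed level was 1111, 1291 and 1383 CPM at 1 h and 1242 and 1122 CPM at 4 h, with overlap. Of the markers of excitatory neurons (10 tested), inhibitory neurons (9), the oligodendrocyte lineage (10), microglia (9), endothelium (7), mural cells (6) and fibroblasts (9), 0 were called. Their medians ran from -0.31 for fibroblast markers to 0.16 for the oligodendrocyte lineage. Without replicate 3 of the 1 h group the medians of fibroblast (0.07), endothelial (0.10), mural (0.05) and microglial markers (0.06) were above 0. Microglial markers summed to 56.1 to 71.3 CPM at 1 h and to 55.1 and 61.3 CPM at 4 h, and mural cell markers to 17.5 to 19.5 and to 18.8 and 19.0 CPM. Cldn5, Cdh5 and Tie1 of the endothelial list were too low to test.

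**Figure D4:**
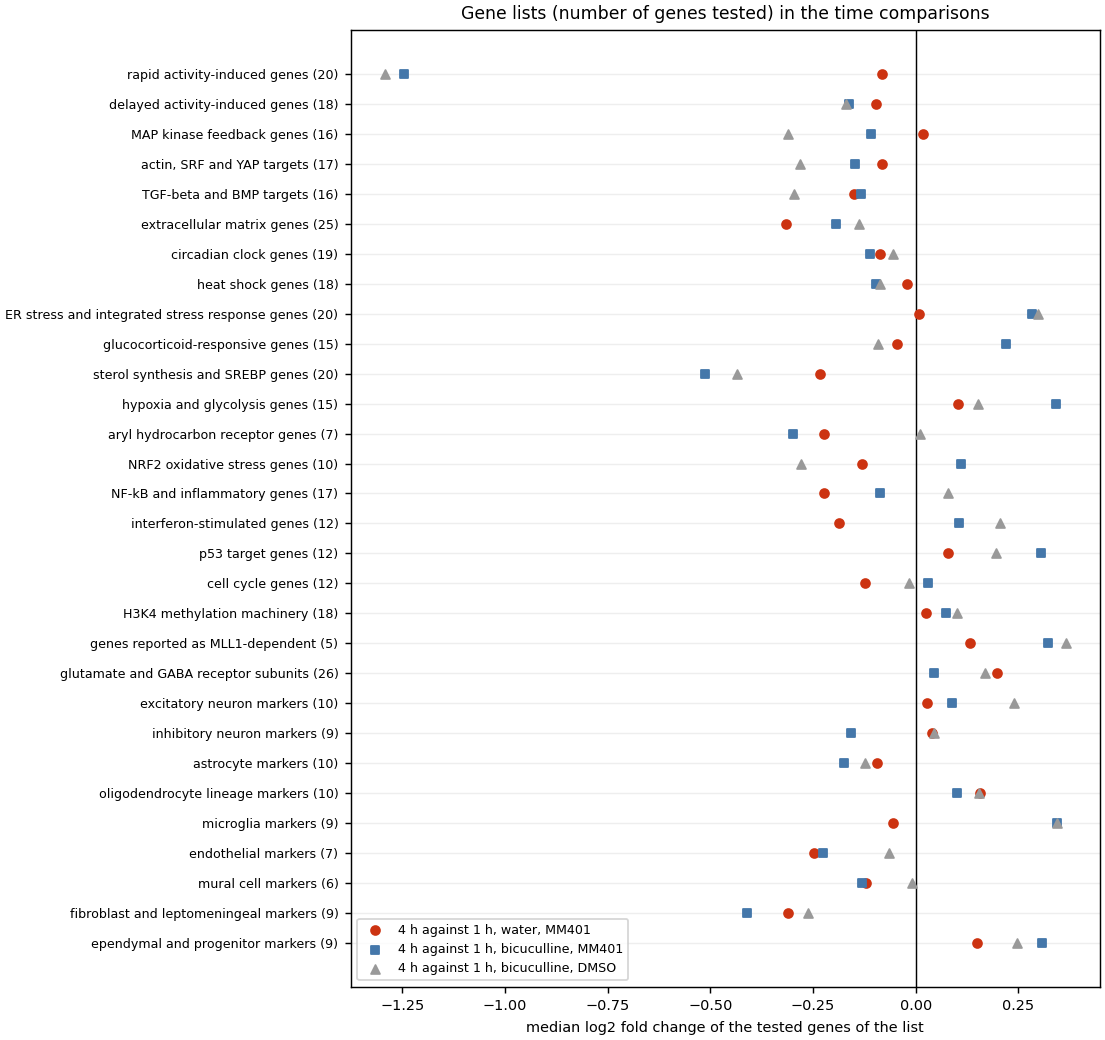
Each row is a gene list with its number of tested genes, and the markers give the median log2 fold change of the list from 1 h to 4 h in water under MM401, in bicuculline under MM401 and in bicuculline under DMSO. In water the medians of matrix (-0.32) and sterol genes (-0.23) lie to the left and that of receptor subunits (0.20) to the right, while the median of the rapid activity-induced genes is -0.08 in water and -1.25 and -1.29 in bicuculline.

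The time step could also be read in bicuculline, in libraries that the water comparison did not use, so that the values are separate measurements apart from the shared estimate of spread. Of the 45 genes that rose in water, 39 were called higher and 3 lower under MM401 with bicuculline, where 17.5% of all tested genes were called higher. Under DMSO with bicuculline 41 were called higher and 2 lower, against 19.1% of all. Of the 102 that fell, 86 were called lower and 3 higher under MM401 (16% of all tested genes were lower), and 85 lower and 2 higher under DMSO (15.2%). Seen from the other side, the 39 genes were 1.31% and the 86 genes 3.17% of those called in the same direction in bicuculline under MM401. Across the 147 genes, 120 were called in the direction of water in both bicuculline series (39 higher, 81 lower). Over all 16959 genes the log2 fold changes in water and bicuculline correlated weakly, with Pearson's r of 0.263 under MM401 and 0.289 under DMSO (Spearman's rho 0.252 and 0.298). These are correlations across genes, which are not independent replicates. Map3k15 fell in all 3 series, from 15.1 to 16.2 CPM to 5.83 to 6.65 CPM in bicuculline under MM401 (log2 fold change -1.31) and from 14.6 to 16.1 CPM to 6.49 to 6.56 CPM under DMSO (-1.22). Its fall under MM401 differed from that in water by -0.38 (adjusted p = 0.0264, edgeR). Rorb fell from 732 to 746 CPM to 410 to 451 CPM under MM401 with bicuculline (-0.78) and from 695 to 744 CPM to 401 to 450 CPM under DMSO (-0.74), and its difference from the -0.70 in water was -0.09 under MM401 (SE 0.11, adjusted p = 0.664, edgeR). Fn1 fell by 0.92 and 1.08, Col12a1 by 1.18 and 1.44 and Nox4 by 0.93 and 0.72 on the log2 scale under MM401 and DMSO. Grm3 rose by 0.32 and 0.42 and Xpo1 by 0.71 and 1.07. Tnc was at -0.15 and -0.22 there and was not called (adjusted p = 0.232 and 0.0709, edgeR).

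**Figure D5:**
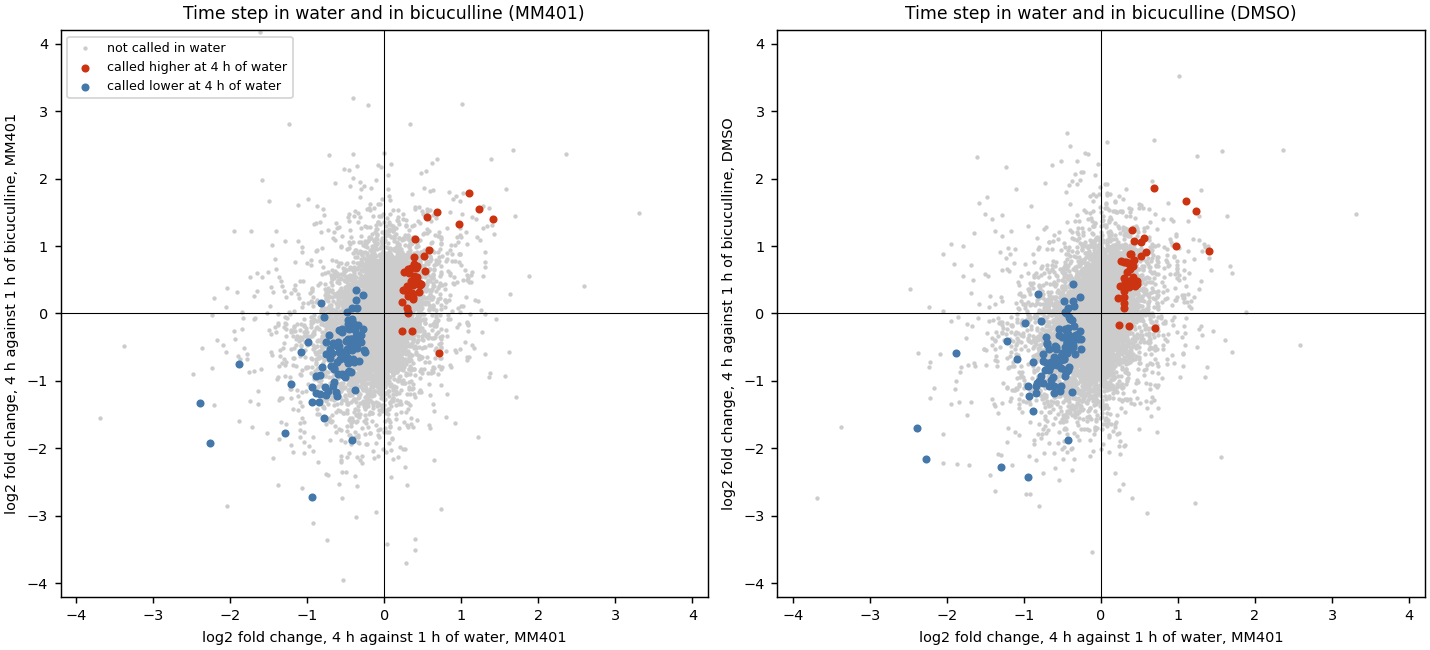
Points are tested genes, with the log2 fold change from 1 h to 4 h of water under MM401 on the x axis and that from 1 h to 4 h of bicuculline under MM401 (one panel) or DMSO (the other panel) on the y axis, and colours mark the 45 genes called higher and 102 called lower in water. Most coloured points lie in the quadrants of equal sign: 42 of 45 and 95 of 102 under MM401, with 3 genes and 1 gene beyond the axes of the 2 panels.

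The difference between the time step in bicuculline and in water under MM401 was itself tested. It was called for 37 of the 147 genes (25.2%), against 12.9% of all tested genes (2187 genes; 6.12% higher and 6.78% lower in bicuculline, a split of 1748 against 711 genes with plain library sizes; edgeR). Of the 37, 23 changed more in bicuculline in the same direction, 4 changed less and 10 had the opposite sign. The water libraries that picked the 147 genes also enter this test. The 25.2% and this split are thus descriptions, not a separate check. Among genes that changed more, C8b went from 4.22 to 4.30 CPM to 0.618 to 0.673 CPM in bicuculline under MM401 (log2 fold change -2.73, against -0.94 in water; difference -1.78, adjusted p = 6.47e-05). Chac1 went from 3.15 to 3.21 CPM to 8.47 to 8.62 CPM (1.43, against 0.56; difference 0.87, adjusted p = 0.000534), and Dkk2 from 7.41 to 9.28 CPM to 21.6 to 25.3 CPM (1.51, against 0.68; difference 0.82, adjusted p = 0.00699). Adgrg6 fell in water and was not called in bicuculline: its libraries there were at 15.2 to 17.6 CPM at 1 h and 15.2 to 15.9 CPM at 4 h under MM401 (log2 fold change -0.06, adjusted p = 0.682; difference from water 0.72, adjusted p = 0.00114). Plagl1 was higher in bicuculline, at 79.9 to 100.2 CPM at 1 h and 60.4 to 72.5 CPM at 4 h under MM401. Its log2 fold change of -0.43 there differed from that in water by 0.56 (adjusted p = 0.0264). Iqcm rose in water and fell in bicuculline under MM401, from 6.57 to 7.44 CPM to 4.05 to 5.17 CPM (log2 fold change -0.59; difference -1.29, adjusted p = 1.00e-04). The other called genes that were also called in the opposite direction in bicuculline under MM401 were Mthfd1l, a mitochondrial folate enzyme gene (-0.27 in water, 0.27 in bicuculline), Kremen1, a receptor for Dickkopf proteins (-0.36 and 0.20), Bcor, a transcriptional corepressor of Polycomb complexes (-0.36 and 0.35), Csgalnact1, an enzyme of chondroitin sulfate synthesis (0.36 and -0.27), and BC052040 (0.23 and -0.26). They were singled out by this count.

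The DMSO cultures in water at 4 h give a level without the inhibitor, but each comparison with them shares libraries with the one above, so values are only set side by side. MM401 against DMSO at 4 h called 14 genes, all higher under MM401 (0.0826% of those tested; 2194 had an unadjusted p under 0.05). It called 0 genes without replicate 2 of the MM401 group at 4 h (1168 at an unadjusted p under 0.05) and 6 without replicate 1. DESeq2 called 108 higher and 58 lower, and the replicate block 17 higher and 2 lower. Each of the 14 genes had an adjusted p between 0.130 and 0.994 for the step from 1 h to 4 h (edgeR). Map3k15 was at 7.48, 7.09 and 6.61 CPM under DMSO at 4 h, beside 7.54 and 7.70 CPM under MM401 at 4 h and 14.3 to 14.9 CPM under MM401 at 1 h. Fn1 was at 9.27, 10.2 and 9.93 CPM under DMSO at 4 h, beside 8.56 and 10.6 CPM under MM401 at 4 h, and Rorb at 315, 336 and 359 CPM beside 309 and 306 CPM. Grm3 was at 249, 271 and 282 CPM beside 242 and 222 CPM. In these 4 genes, picked as examples, the DMSO libraries at 4 h lay beyond all MM401 libraries at 1 h on the side of the MM401 libraries at 4 h. In others they overlapped the 1 h libraries: Wls was at 98.6, 79.1 and 73.5 CPM under DMSO at 4 h, Tnc at 33.9, 31.3 and 28.7 CPM and Neurl3 at 1.79, 1.65 and 1.54 CPM. Hist1h1c, at 4.88, 8.02 and 9.79 CPM under DMSO at 4 h, was above both MM401 libraries at 4 h, though the difference was not called (log2 fold change of MM401 over DMSO -0.84, adjusted p = 0.136, edgeR). DMSO at 4 h against MM401 at 1 h, where time and inhibitor differ together, called 1124 genes (6.63%), 409 of them higher (2.41%) and 715 lower (4.22%), and 543 or 624 genes without replicate 2 or 1 of the 1 h group (edgeR).

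The genes that changed tended to be long. The median length was 101.1 kb for genes that rose, 87.3 kb for those that fell and 23.1 kb for all tested genes, and 2.92% of genes from 100 to 300 kb were called against 0.166% of those from 10 to 30 kb. Longer genes collect more counts in nascent RNA, and called genes were also more abundant, with a median of 51.5 CPM at 1 h for genes that rose and 22.8 for those that fell against 9.93 CPM for all. Their part in which genes were called was not tested. Promoter stretches of the same 250 bases were found for 108 of the 147 genes (33 that rose, 75 that fell). The E-box CACGTG was in 11 of 75 promoters of genes that fell (14.7%), 0 of 33 of genes that rose and 8.09% of those of all tested genes. Plagl1, Creb5, Fkbp5 and Insig1 were among the 11. The AP-1 motif TGANTCA was in 6.06% of the promoters of genes that rose, 6.67% of those that fell and 4.78% of all, and the TEAD motif GGAATG in 9.09%, 6.67% and 10.8%. A match of letters is a description and no binding site.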

How the data were processed

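BrU-seq libraries of cortical cultures were analysed from 1 deposited table of raw read counts per gene (24984 genes), in which the whole span of each gene was counted with featureCounts, per the file headers. The submitters' processing notes also list Bowtie2, UMI-tools, deepTools, DESeq2 and the build mm10; versions and the use of strand are not given in the sources used here, so counts of overlapping genes are uncertain. The counts were not normalized by the authors, per the file's values. The table's start is 1 lower than RefSeq's for 16583 of 24103 matched symbols, so starts appear to count from 0. For 412 genes listed at several positions the summed count was kept. The 20 deep libraries of 7 groups entered 1 edgeR 4.0.16 model (R 4.3.3, limma 3.58.1) with a mean per group, TMM scaling and robust quasi-likelihood tests. The other 15 libraries serve to estimate the spread, and the shallow library was left out. Genes were kept by filterByExpr (minimum count 10, minimum total 15). A gene was called at a Benjamini-Hochberg adjusted p under 0.05 over all genes; tests are two-sided. In all, 6 comparisons, 21 gene lists and 9 marker lists were used. CPM are TMM-scaled, fold changes are log2 with SE, and n is 3 libraries at 1 h and 2 at 4 h. The median SE was 0.125. On simulated data with 16850 genes the water comparison recovered 56 of 100 genes changed 1.5-fold and 86 of 100 changed 2-fold, with 8 false calls among 150. The simulation drew each gene independently, without effects shared across a library or a replicate number. Its false-call rate may therefore not hold for these data. Named were up to 15 called genes in each direction with the largest log2 fold change, at least 2 CPM on average in the higher of the groups and libraries that did not overlap between them (unnamed, small RNA, mitochondrial and pseudogenes left out), every called list gene (at most 6 a list), and 10 genes always shown. The comparison, members and lists were chosen with earlier results of these data known. Groups share replicate numbers in the labels, and the sample titles are numbered in runs by replicate number. Same-numbered libraries of the 2 groups had deviations from their group means that correlated at 0.0992 and 0.0966 over all genes. With 2 libraries at 4 h the deviations there mirror each other, so these are not separate checks. No label says what a number stands for, and the main model has no term for it. Replicate 1 had the highest histone sum in all 7 groups, and replicate 3 entered only at 1 h. A shared effect of the number can thus remain in the main results, and the replicate block is given as an alternative. Alternatives were plain library sizes, no filter, the 5 libraries alone, all 21 libraries, thinned counts, a replicate block, a length trend, each library left out, and DESeq2 1.42.0. Promoters are RefSeq's, matched by symbol. Some genes are not reported here.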

Additional observations from a re-analysis of the deposited data

Results flagged for a closer look

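The time step from 1 h to 4 h under MM401 differed between bicuculline and water for 2187 genes by edgeR's test of the difference itself (1038 higher and 1149 lower in bicuculline). With plain library sizes the split was 1748 higher and 711 lower. With either 4 h water library left out the count was 1310 (replicate 1) or 1378 (replicate 2). The genes named by rule for which the test of the difference passed are given here with the difference on the log2 scale, bicuculline minus water. Among genes that changed in water it was -1.29 for Iqcm, 0.821 for Dkk2, 0.871 for Chac1, 0.557 for Plagl1, -1.78 for C8b, -0.379 for Map3k15, 0.968 for Neurl3, -0.761 for Mnd1 and 0.721 for Adgrg6. These genes were picked on the same water libraries that enter the difference. Among activity-induced genes, none of which was called in water, it was -1.37 for Fos, -1.95 for Egr1, -1.66 for Arc, -1.02 for Nr4a1, 0.525 for Bdnf and -2.32 for Homer1. Adjusted p-values of these genes ran from 7.64e-08 (Egr1) to 0.0387 (Mnd1).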

How the results depend on the processing

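All 147 genes called in water kept their sign in the 13 alternatives, which reuse the libraries that picked them, and the count of calls moved. It was 178 with plain library sizes (111 of them among the 147), 140 without the filter (134), 145 with thinned counts (133) and 172 with the replicate block (55 higher, 117 lower; 140 of them among the 147; of the genes named, Wls and Neurl3 were not, with adjusted p of 0.0555 and 0.0511, edgeR). It was 328 with the 5 libraries alone (141 higher, 187 lower; 138 among the 147), 19 with the shallow library kept, 235 with the length trend (135 among the 147) and 275 with DESeq2 (103 higher, 172 lower; 144 among the 147), and 14 to 140 with 1 library left out. With 21 libraries the bicuculline time step called 3646 genes under MM401 and 3745 under DMSO, the difference of time steps 886, MM401 against DMSO 0 and DMSO at 4 h against MM401 at 1 h 356. MM401 against DMSO called 4 genes with plain library sizes, 166 with DESeq2 (108 higher, 58 lower), 19 with the replicate block (17 higher, 2 lower) and 0 to 6 with 1 of its MM401 libraries left out. Leaving out 1 library gave 1310 to 2004 genes for the difference of time steps and 543 to 766 for DMSO at 4 h against MM401 at 1 h. Plain library sizes changed the split of calls in bicuculline to 3603 higher and 1943 lower under MM401 and to 2015 and 3131 under DMSO, and that of the difference of time steps to 1748 and 711. With the shallow library the long-gene share was lower at 4 h, by -0.83 percentage points (exact permutation test, p = 0.9). Some genes not called in water changed sign. With 1 library left out, log2 fold changes ran from -0.088 to 0.31 for Fos, -0.36 to 0.20 for Arc, -0.32 to 0.053 for Nr4a1, -0.19 to 0.040 for Bdnf, -0.095 to 0.050 for Plk2 and -0.0040 to 0.068 for Kmt2a. With 21 libraries Homer1 was at -0.079 and Kmt2a at -0.14, and with plain library sizes Kmt2a was at -0.034. With plain library sizes the named genes BC052040, Chac1, Etv1, Hist1h1a, Hist1h1c, Katnal2, Kremen1, Prom1 and Zbtb40 were not called (adjusted p from 0.0522 to 0.225, edgeR). With the 5 libraries alone the named genes Chac1, Hist1h1a, Kremen1, Neurl3 and Slc7a11 were not called (adjusted p from 0.0510 to 0.124, edgeR). The causes were not tested. With 2 libraries at 4 h and a median SE of 0.125, many changes under 1.5-fold may have been missed. Of the 147 called genes 49 changed by at least 1.5-fold, and the smallest called change was 0.23 on the log2 scale. Changes under 1.5-fold were not simulated.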
